A study of Mus musculus with 9 samples.

Results

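Dermal cells of newborn mice that carried high CD49f at their surface were compared, across all expressed genes, with dermal cells that carried low CD49f, in 3 RNA-seq libraries of each. These are 6 of the 9 libraries of the study, and 20523 of the 84809 rows of its expression table entered the comparison, those with at least 1 FPKM (mapped fragments scaled to transcript length and to library size) in at least 3 of the 9 libraries. All mice carried Krt14 cre together with the Rosa26-mTmG reporter. Krt14 cre is driven by a keratin promoter of the basal epidermis, and the reporter changes colour in cells that have had Cre activity and in their descendants. Sorted cells went straight into lysis without culture, and the only difference between the groups that the labels give is the CD49f gate: CD49f-neg, CD49f-low or CD49f-high. The 3 CD49f-neg libraries share the estimate of the spread and are otherwise given as levels for context. Whether the replicates are separate animals, litters or sorts is not given in the labels, so every p-value here measures only the spread between these libraries.

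CD49f is the integrin alpha 6 chain, encoded by Itga6, which pairs with the beta 1 or beta 4 chain to hold cells to laminin in basement membranes. In skin it is best known from basal keratinocytes, and it is also carried by endothelium, by the pericytes and smooth muscle cells that wrap vessels (mural cells), and by Schwann cells, the glia of peripheral nerves. Newborn dermis also holds fibroblasts, melanocyte precursors and the dermal papilla, the cluster of mesenchymal cells that signals to the hair follicle. Transcription factors, receptors and secreted factors are the genes through which such cell types set their identity, sense their surroundings and act on their neighbours, and the comparison was therefore read through 3 lists: 622 transcription factors, 450 receptors and 512 secreted factors.

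Itga6 itself followed the gates. It stood at 6.05, 4.38 and 6.09 FPKM in the CD49f-low libraries and at 15.9, 19.6 and 24.1 FPKM in the CD49f-high libraries, against 0.283 to 0.710 FPKM in the CD49f-neg libraries. No CD49f-high library came near a CD49f-low one, and the difference on the log2(FPKM + 1) scale, used for every difference below, was 1.67 ± 0.18 (standard error; adjusted p = 0.000282, limma with Benjamini-Hochberg adjustment over all rows tested). This scale understates the change of genes of low level. Itgb4, the partner chain of hemidesmosomes and of Schwann cells, was at 0.669, 0.722 and 0.654 FPKM in CD49f-low and at 2.78, 10.7 and 11.6 FPKM in CD49f-high, a rise of 2.29 ± 0.38 (adjusted p = 0.00303). For Itgb1, the more common partner, the libraries held 114 to 131 FPKM in CD49f-low and 140 to 194 FPKM in CD49f-high, and the difference of 0.44 ± 0.14 missed the threshold (adjusted p = 0.0591), though it passed when quantile normalized (adjusted p = 0.00499), when scaled by median of ratios (0.0119), without CD49f-high replicate 2 (0.0304) and with the replicate number as a block (0.0262).

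One library stood apart. CD49f-high replicate 1 held 132 FPKM of Adipoq, the fat cell hormone adiponectin, where CD49f-high replicates 2 and 3 held 2.30 and 1.16 FPKM, and its summed level over the adipocyte list was 391 FPKM against 42.5 and 29.9. The same library was lowest of the 3 for all 9 Schwann cell genes called higher, at 0.0966 to 0.408 times the mean of the other 2, and highest for 10 of the 12 pericyte genes and 10 of the 11 smooth muscle genes called higher, at a median of 1.36 and 1.76 times the other 2. Whether these libraries differ in their mix of cells or in the RNA of each cell was not tested, and in bulk samples fewer cells of a type and less RNA per cell cannot be told apart. Among the members called higher, replicate 1 was under 0.5 times the mean of the other 2 for 1 of 40 transcription factors (Pou3f1), 9 of 66 receptors (Adgrg6, Celsr1, Gfra3, Gpr17, Itga2, Itgb4, Ngfr, Plxnb3 and Vldlr) and 7 of 59 secreted factors (Artn, Dhh, Kera, Lgi4, Matn2, Sfrp1 and Sfrp5).

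Of the 20523 rows, 3367 (16.4%) passed an adjusted p under 0.05, with 1216 (5.93%) higher in CD49f-high and 2151 (10.5%) lower. The balance of directions depended on the scaling: with median-of-ratios scaling 1614 rows (7.86%) passed as higher and 1331 (6.49%) as lower, and quantile normalization gave 1577 (7.68%) and 1431 (6.97%), since the median difference over all rows was -0.15 as deposited, -0.01 after the first and -0.03 after the second. With the replicate number as a block, 1657 rows were higher and 3652 lower. Leaving out CD49f-low replicate 3 or CD49f-high replicate 3 cut the rows called lower to 1307 and 1416. Leaving out CD49f-high replicate 1 gave 1188 higher and 2093 lower. Rows that carry a single gene symbol, the background for the lists below, numbered 12006, of which 889 (7.40%) were called higher and 1140 (9.50%) lower, with a median difference of -0.12. The family counts below are to be read beside these shares, and some lie near them.

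The genes with the widest differences fall into recognisable groups. Among the highest of the abundant genes were Rgs5 (5.24), Adra2a (4.21), Gfra3 (4.12), Moxd1 (3.90), Myh11 (3.83), Gpr17 (3.63) and Abcc9 (3.58). Rgs5, a regulator of G protein signalling that marks pericytes, rose from 4.42, 5.32 and 21.6 FPKM to 462, 269 and 336 FPKM (adjusted p = 9.46e-05). The 8 lowest of the same kind were Pmel (-5.35), Dct (-5.31), Ptgds (-4.51), Mlana (-4.47), Mcoln3 (-3.79), Tyrp1 (-3.49), Slc45a2 (-3.26) and Gpnmb (-3.13), most of them genes of the pigment granule. Dct, a melanin synthesis enzyme, fell from 138, 189 and 182 FPKM to 4.02, 4.75 and 1.65 FPKM (adjusted p = 9.08e-06). Ptgds, which makes prostaglandin D2, fell from 40.0, 44.9 and 45.7 FPKM to 1.49, 1.15 and 0.386 FPKM (adjusted p = 5.05e-06), and none of these libraries overlapped between the gates.

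The marker lists give these groups in numbers. For pericytes, 12 of 15 tested members were called higher and none lower, with a median difference of 2.69, and the summed level rose from 108 to 160 FPKM across the CD49f-low libraries to 753 to 1268 FPKM across the CD49f-high libraries. Smooth muscle gave 11 of 13 higher and none lower. Of the Schwann cell list 9 of 17 were higher and 1 was lower, Ncam1 (-1.18), and between 3 and 5 were called higher without CD49f-low replicate 2, CD49f-low replicate 3, CD49f-high replicate 2 or CD49f-high replicate 3. In the other direction, 12 of 13 melanocyte genes and 18 of 19 dermal papilla genes were lower and none of either list higher, and melanocyte genes summed to 481 to 592 FPKM in CD49f-low and 26.6 to 45 FPKM in CD49f-high. These are descriptions of lists drawn up with the outcome known, and the sections that follow turn to the wider lists of regulators and signals. Those lists also hold some of these marker genes, such as Foxs1, Pdgfrb, Notch3, Gfra3, Mitf and Kit. Their counts are therefore not independent of the marker counts.

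**Figure D1:**
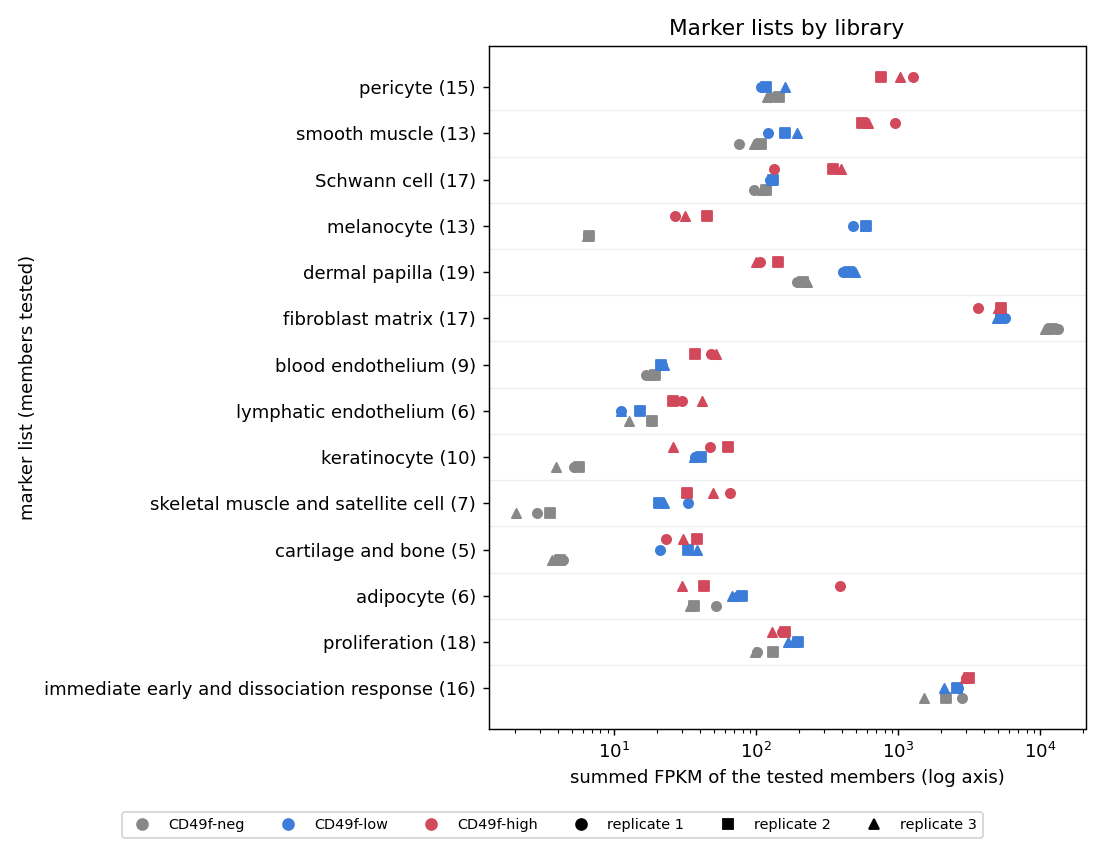
Summed FPKM of the tested members of each marker list, one point per library on a log axis, with colours for the 3 gates. Pericyte, smooth muscle and lymphatic sums stand higher in CD49f-high, melanocyte and dermal papilla sums stand lower, and the adipocyte sum of one CD49f-high library (391 FPKM) stands far above the other 2.

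Among the 338 transcription factors tested (of the others in the list, 229 were below the filter, 48 shared their row with another gene and 7 were not in the table), 40 (11.8%) were called higher in CD49f-high and 80 (23.7%) lower, against 7.40% and 9.50% of single-symbol rows. The counts were 49 higher and 59 lower when scaled by median of ratios, and 49 and 65 when quantile normalized. All 40 called higher and 79 of the 80 called lower had no overlap between the 2 gates' libraries, which follows largely from their being called. Called or not, 60 of the 338 had no overlap in the higher direction and 116 in the lower. Of single-symbol rows, called or not, 12.2% and 27.0% had none. Calls that held when any 1 of the 9 libraries was left out numbered 28 of 40 and 58 of 80.

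**Figure D2:**
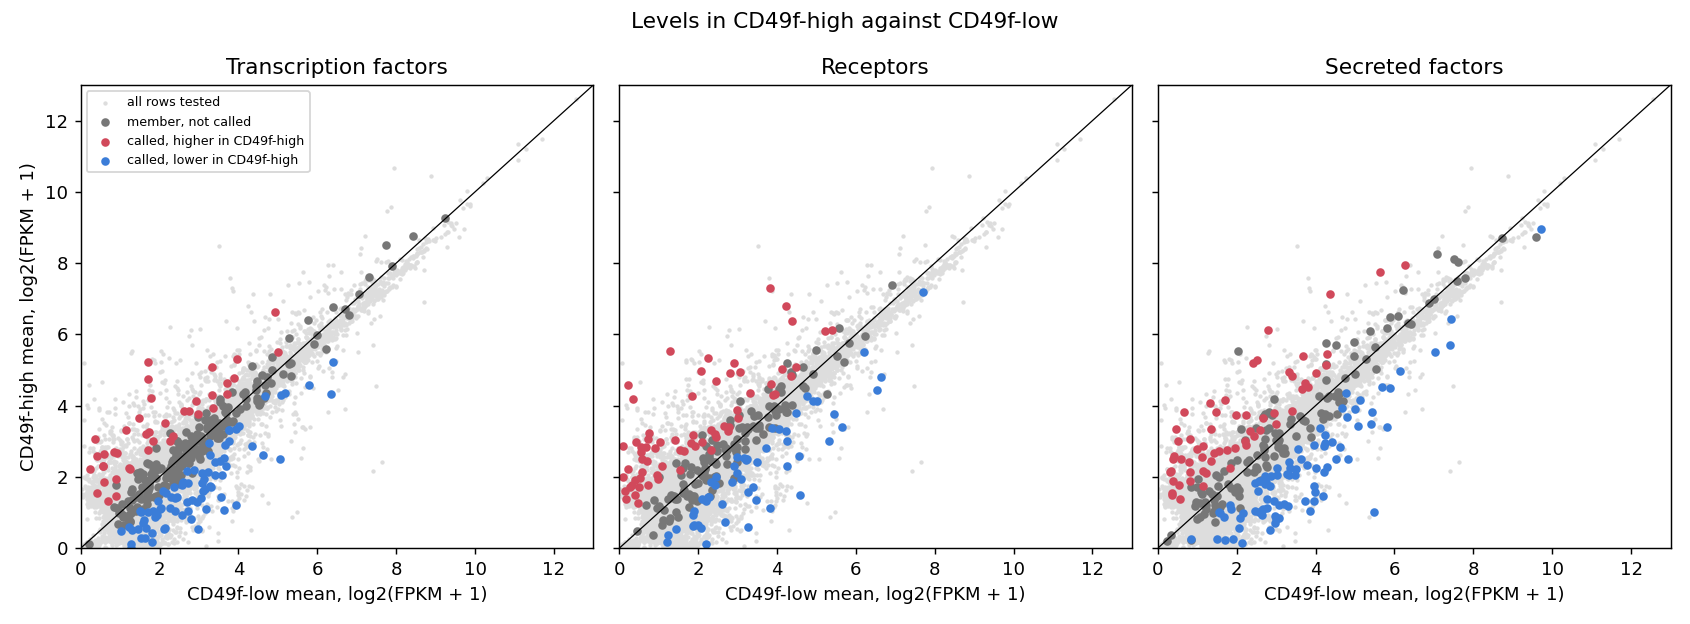
Mean log2(FPKM + 1) in CD49f-low (horizontal) against CD49f-high (vertical) for transcription factors, receptors and secreted factors, over all rows in grey. Red points were called higher in CD49f-high (40, 66 and 59) and blue points lower (80, 53 and 84), with dark grey for members not called.

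Epas1, the hypoxia-responsive factor HIF-2 alpha that is prominent in vessel walls, had the widest rise of all factors. It was at 1.69, 1.73 and 3.30 FPKM in CD49f-low and at 47.1, 25.5 and 36.0 FPKM in CD49f-high, a difference of 3.52 ± 0.24 (adjusted p = 3.39e-05), and it was under 0.5 FPKM in every CD49f-neg library. The lowest CD49f-high library thus lay well above the highest CD49f-low one. Its relatives rose less: Hif3a by 0.80 and Hif1a by 0.84, the latter losing its call without CD49f-low replicate 1, 2 or 3 (highest adjusted p = 0.0688).

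Forkhead factors, which regulate mesoderm and vessel development among other tissues, gave 3 of 16 higher and 2 lower (1 lower after median-of-ratios scaling). Foxs1, known from pericytes and from sensory neurons of neural crest origin, was at 1.71, 1.99 and 3.07 FPKM in CD49f-low and 29.3, 24.6 and 23.0 FPKM in CD49f-high (3.05 ± 0.16, adjusted p = 1.17e-05). Foxf1, a factor of visceral and vascular mesenchyme, went from 0.170, 0.380 and 0.461 FPKM to 6.98, 3.23 and 4.89 FPKM (2.13 ± 0.22, adjusted p = 0.000199). Foxc2, needed for lymphatic and vascular development, was the remaining riser, at 0.383 to 0.567 FPKM against 2.96 to 4.57 FPKM (1.73 ± 0.16). Foxo6 went the other way (-1.49 ± 0.24, adjusted p = 0.00255), as did Foxn3 (-0.45), whose call was lost without CD49f-low replicate 1 (adjusted p = 0.0661) and in 3 further such fits.

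Nuclear receptors, factors that are switched by hormones and other small lipids, contributed the COUP-TF pair. Nr2f1 was at 0.184, 0.201 and 0.477 FPKM in CD49f-low and 7.58, 5.61 and 9.02 FPKM in CD49f-high (2.69 ± 0.17, adjusted p = 2.14e-05). Nr2f2, which specifies vein and also lymphatic endothelium, was at 1.79, 2.05 and 3.51 FPKM against 16.5, 14.7 and 21.4 FPKM (2.44 ± 0.20). Both pairs of gates were clear of each other. In all, 3 of 28 nuclear receptors were higher and 5 lower (4 and 1 after median-of-ratios scaling, 5 and 2 when quantile normalized), and 8 were higher with the replicate number as a block. As deposited, the shares were 10.7% higher and 17.9% lower, against 7.40% and 9.50% of single-symbol rows.

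Homeobox factors outside the Hox clusters gave 7 of 43 higher and 14 lower. Hopx, an unusual homeodomain protein that does not bind DNA, rose from 1.65, 1.68 and 2.07 FPKM to 14.2, 8.69 and 11.6 FPKM (2.14 ± 0.17). Phox2a, best known from autonomic neurons, rose from 0.132 to 0.247 FPKM to 5.51, 2.40 and 3.14 FPKM (1.93 ± 0.22, adjusted p = 0.000346). An exon of Inppl1 lies on the opposite strand at Phox2a, and Inppl1 averaged 12.2 FPKM in CD49f-low and 14.4 FPKM in CD49f-high. The strand of the counting is not given in the sources used here. Meox2, a regulator of vascular and limb muscle development, was already present in CD49f-low at 8.33, 6.73 and 12 FPKM and reached 23.4, 33.7 and 41.1 FPKM in CD49f-high (1.75 ± 0.24). Pou3f1, which drives Schwann cells towards myelination, was also called (1.67), but CD49f-high replicate 1 was at 0.2 times the other 2 and the call was lost in 4 of the 9 fits that leave out a library (highest adjusted p = 0.0788).

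The homeobox factors that fell are known from skull, limb and dermal mesenchyme. Alx4 went from 21.7, 34.8 and 40.3 FPKM to 3.55, 7.85 and 2.61 FPKM (-2.62 ± 0.35, adjusted p = 0.000904), and its relative Alx1 (-1.27) was lower too. For Alx4 the CD49f-neg libraries sat at 1.17 to 2.64 FPKM, close to CD49f-high. Further members called lower were Prrx2 (-1.62), Msx2 (-1.52), Meis1 (-1.47), Irx5 (-1.18), Irx1 (-1.09) and Irx2 (-0.97). Of the Hox cluster itself, which records position along the body axis, 7 of 15 tested genes were lower and none higher (5 lower after median-of-ratios scaling), led by Hoxa6 (-1.0 ± 0.13, adjusted p = 0.000734).

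Basic helix-loop-helix factors, the family of the muscle and neural determination genes, gave 7 of 44 higher and 19 lower (8 and 13 after median-of-ratios scaling). Twist1, a mesenchymal regulator, stayed high in both gates at 89.2, 73.5 and 85.7 FPKM in CD49f-low and 39.5, 33.8 and 36.0 FPKM in CD49f-high (-1.16 ± 0.12, adjusted p = 0.000194), and Twist2 fell by 1.42. The muscle determination factors Myog (-1.96 ± 0.23, adjusted p = 0.000447), Myod1 (-1.63) and Myf5 (-1.14) were lower at small absolute levels: Myog was at 8.23, 5.15 and 4.35 FPKM in CD49f-low and at or under 1.33 FPKM in CD49f-high. Hey1, a Notch target of the dermal papilla list, fell from 10.2, 13 and 12.1 FPKM to 3.76, 4.11 and 3.94 FPKM (-1.36), whereas another Notch target, Heyl, was called higher (1.39), a call lost without CD49f-low replicate 3 (adjusted p = 0.0881) and in 4 further such fits.

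Mitf, the master regulator of the pigment cell, was in the same family. It stood at 10.2, 10.3 and 12.2 FPKM in CD49f-low, at 1.91, 1.61 and 1.63 FPKM in CD49f-high and at 1.66 to 2.59 FPKM in CD49f-neg, so that the difference of -2.13 ± 0.14 (adjusted p = 2.39e-05) set CD49f-low apart from both other gates. Mitf and its relatives bind E-boxes, and the CATGTG form is known from pigment gene promoters. Of the 12 melanocyte genes called lower, 9 had a promoter in the RefSeq table used here (GRCm38.p6, 250 bases before the annotated start), and 6 of these 9 held CATGTG on either strand in at least 1 window, against 13.8% of all 27025 genes with a window of that length. By window the motif was in 6 of 13, against 12.3% of all 32851, and the Tyrp1 match lies in an annotated exon. The form was chosen after the values were seen and is known from promoters of this kind, so these shares were bound to favour it. The part of Mitf in the fall of these genes was not tested. The windows of 2 melanin synthesis enzymes, Dct (chr14:118052247-118052496, minus strand, matches beginning 232 and 150 bases before the start) and Tyr (chr7:87493513-87493762, minus strand, 21 bases before the start), and of the pigment granule exchanger Slc24a5 (chr2:125067877-125068123, plus strand, 13 bases before the start) are shown 5′ to 3′ because these genes fell with Mitf. Capitals mark CATGTG or its reverse complement CACATG, and 3 bases of the Slc24a5 window that lie in an annotated exon are left out.
Dct: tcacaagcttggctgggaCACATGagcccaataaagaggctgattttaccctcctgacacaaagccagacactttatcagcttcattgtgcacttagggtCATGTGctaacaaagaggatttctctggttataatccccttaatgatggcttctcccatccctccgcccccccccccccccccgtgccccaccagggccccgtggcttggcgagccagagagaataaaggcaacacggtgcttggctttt
Tyr: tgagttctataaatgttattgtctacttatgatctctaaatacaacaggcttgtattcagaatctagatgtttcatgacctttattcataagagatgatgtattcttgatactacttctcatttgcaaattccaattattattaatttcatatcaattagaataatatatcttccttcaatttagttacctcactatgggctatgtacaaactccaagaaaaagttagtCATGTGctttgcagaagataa
Slc24a5: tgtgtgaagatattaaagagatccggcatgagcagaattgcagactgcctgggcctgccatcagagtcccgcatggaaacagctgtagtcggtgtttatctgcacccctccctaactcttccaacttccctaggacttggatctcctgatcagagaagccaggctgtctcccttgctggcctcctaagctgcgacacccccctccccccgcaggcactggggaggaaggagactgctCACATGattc

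Tyr itself fell from 3.86, 3.76 and 4.77 FPKM to 0.142, 0.124 and 0.0555 FPKM (-2.21 ± 0.12), and Slc24a5 from 7.85, 10.7 and 11.9 FPKM to 0.429, 0.398 and 0.202 FPKM (-3.04 ± 0.15). A sequence match describes these windows and shows no binding. Other factors known from neural crest and pigment cells fell as well: Tfap2a from 7.19, 8.34 and 10.4 FPKM to 1.27, 2.92 and 2.78 FPKM (-1.56 ± 0.21) and Pax3 from 6.45, 8.29 and 8.73 FPKM to 1.04, 2.56 and 2.85 FPKM (-1.53 ± 0.23). Sox10, shared by melanocytes and Schwann cells, was not called (-0.03 ± 0.50, adjusted p = 0.976), with 20.7, 21.9 and 26.7 FPKM in CD49f-low and a wide 7.46, 32.5 and 44.9 FPKM in CD49f-high. The lowest of those values was again CD49f-high replicate 1, and without that library Sox10 was called higher (0.71, adjusted p = 0.0199).

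Serum response factor cofactors, which switch on contractile genes through CArG boxes, are represented by Myocd. It was at 0.359, 0.449 and 0.668 FPKM in CD49f-low and 5.98, 2.38 and 3.58 FPKM in CD49f-high (1.68 ± 0.26, adjusted p = 0.00197), with 0.748 to 1.68 FPKM in CD49f-neg. The list of SRF cofactors, MEF2, TEAD and NFAT factors also holds genes of other families, such as Ldb2. Of its 25 tested members, 3 were higher (Myocd, Csrp2 and Ldb2) and 1, Vgll4 (-0.32), was lower. The calls of Csrp2 (highest adjusted p = 0.147) and Vgll4 were each lost in 8 of the 9 fits that leave out a library. None was lower after median-of-ratios scaling, and 3 were with the replicate number as a block. As deposited, the shares of this list were 12% higher and 4% lower, against 7.40% and 9.50% of single-symbol rows. Among the 11 smooth muscle genes called higher, 9 had a promoter window. The search took only the exact form of the CArG box, CC and GG around a run of A or T bases alone. That form was found in 1 of them, Myl9, against 1.47% of all promoter windows. Near forms with another base in the run, such as ccctatatgg and ccttgtttgg in the Acta2 window, were not counted. Myl9, the regulatory light chain of smooth muscle myosin, rose from 27.2, 43.8 and 30.7 FPKM to 109, 121 and 133 FPKM (1.83 ± 0.23). Its window (chr2:156775214-156775419, plus strand) is shown with the box in capitals, beginning 161 bases before the start, and without the 44 bases that lie in an annotated exon.
Myl9: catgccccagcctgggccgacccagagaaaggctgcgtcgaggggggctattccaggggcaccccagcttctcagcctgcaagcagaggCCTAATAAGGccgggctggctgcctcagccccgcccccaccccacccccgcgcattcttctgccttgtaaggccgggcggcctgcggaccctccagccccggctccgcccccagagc

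T-box and SOX factors moved in both directions. Tbx2, a repressor active in many organ fields, rose from 1.09, 1.01 and 1.55 FPKM to 9.69, 6.54 and 10.4 FPKM (2.14 ± 0.17, adjusted p = 6.17e-05), while Tbx5, the forelimb factor, fell (-0.90 ± 0.14). Of 8 T-box genes no other was called, though Tbx6 (-0.46) passed with the replicate number as a block (adjusted p = 0.0364) and without CD49f-low replicate 1 (0.0307). The share called was thus 12.5% in each direction, against 7.40% and 9.50% of single-symbol rows. Sox5 (1.26 ± 0.11) and Sox13 (1.55 ± 0.19), of one SOX subgroup, were higher, Sox13 at 1.81, 2.07 and 2.53 FPKM against 8.34, 6.84 and 9.47 FPKM. Lower were Sox18, Sox2 and Sox11, of 10 SOX genes tested. Sox18 and Sox2 belong to the dermal papilla list, and Sox18 remained at 15.4, 25.6 and 16.5 FPKM in CD49f-high after 66.3, 79.6 and 93.9 FPKM in CD49f-low (-2.02 ± 0.26).

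Among zinc finger regulators, 6 of 45 were higher and 13 lower. Osr2, a factor of connective tissue and palate, fell from 25.8, 20.6 and 24.8 FPKM to 5.60, 5.94 and 3.88 FPKM (-2.02 ± 0.18), and was highest in CD49f-neg at 39.6 to 57.5 FPKM. Zic1 was at 6.53, 7.10 and 8.30 FPKM against 1.78, 1.65 and 1.49 FPKM (-1.65 ± 0.12, adjusted p = 4.17e-05). Prdm1, which marks dermal papilla precursors, fell from 18.4, 19.3 and 20.6 FPKM to 8.98, 4.69 and 5.38 FPKM (-1.52 ± 0.19). Gata6, a factor of vascular smooth muscle, led the higher ones (1.37), with the call lost without CD49f-low replicate 3 (adjusted p = 0.0631), CD49f-low replicate 1 or CD49f-high replicate 2.

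In the remaining mixed list of 104 factors, 8 were higher and 15 lower (16 and 24 with the replicate number as a block). The shares were 7.69% and 14.4%, against 7.40% and 9.50% of single-symbol rows, so the share called higher was near the background. Ebf2 rose from 0.233, 0.440 and 0.823 FPKM to 4.49, 4.8 and 6.58 FPKM (2.07 ± 0.17), whereas its relative Ebf4 fell from 4.61, 5.83 and 6.44 FPKM to 1.02, 1.36 and 0.771 FPKM (-1.69 ± 0.21). Cebpd, an inflammation-responsive factor, rose at a higher level, from 24.5, 32.1 and 31.0 FPKM to 87.9, 82.3 and 124 FPKM (1.70 ± 0.26). The widest falls were Tfap2c, from 13.1, 14.4 and 15.7 FPKM to 1.96, 1.65 and 0.398 FPKM (-2.79 ± 0.26, adjusted p = 0.000115), Runx3 (-2.59 ± 0.21) and Lef1, the nuclear partner of Wnt signalling, from 7.51, 6.67 and 9.88 FPKM to 1.20, 1.38 and 0.836 FPKM (-2.07 ± 0.19). Tcf7, another partner of the same pathway, fell by 1.36.

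**Figure D3:**
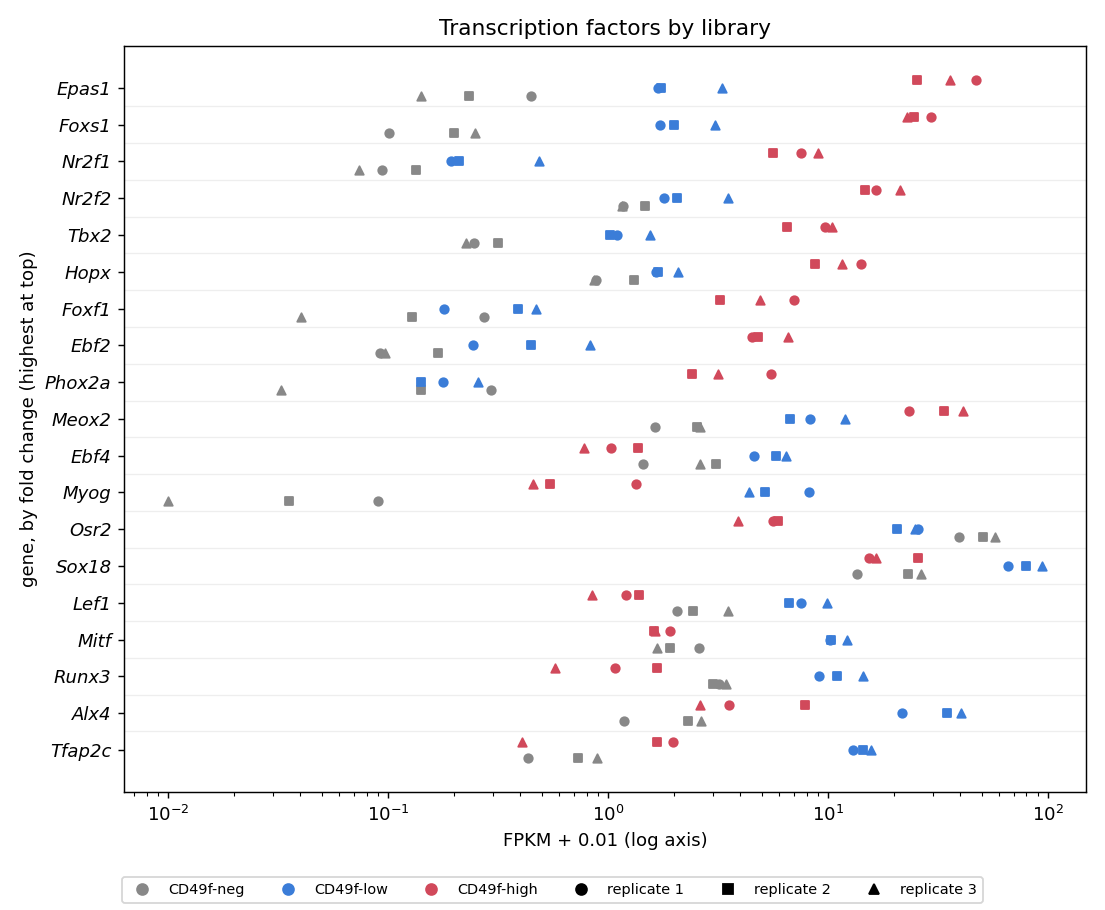
FPKM + 0.01 in each library on a log axis for transcription factors chosen for the widest rises and falls, with colours for gates and marker shapes for replicates. The CD49f-high points of Epas1 (25.5 to 47.1 FPKM) and Foxs1 (23.0 to 29.3 FPKM) lie clear of the CD49f-low points, and those of Mitf (1.61 to 1.91 FPKM) lie below them.

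Of 250 receptors tested (170 were below the filter, 28 shared a row and 2 were not in the table), 66 (26.4%) were higher and 53 (21.2%) lower, with a median difference of 0.04. Of single-symbol rows 7.40% were higher and 9.50% lower. After median-of-ratios scaling 75 receptors were higher and 44 lower. None of the called receptors overlapped between the 2 gates' libraries, which follows largely from their being called. Called or not, 79 of the 250 had no overlap in the higher direction and 76 in the lower, against 12.2% and 27.0% of single-symbol rows. Of the calls, 53 of the 66 higher and 42 of the 53 lower held whichever library was left out.

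Receptors for transmitters, lipids and vasoactive peptides that couple to G proteins gave 21 of 67 higher and 9 lower (15 lower with the replicate number as a block). Adra2a, the alpha 2A adrenergic receptor, had the widest rise of any receptor: 1.08, 1.35 and 1.91 FPKM in CD49f-low became 49.6, 31.0 and 54.3 FPKM in CD49f-high (4.21 ± 0.21, adjusted p = 1.01e-05). Adra2b (1.21 ± 0.11), Adra1a (1.38 ± 0.23) and Adra1d (1.06 ± 0.20) were also higher, so that 4 adrenergic receptors were called at very different levels, Adra1a reaching only 1.22 to 3.57 FPKM. Ptgir, the prostacyclin receptor of vascular smooth muscle, rose from 2.07, 2.43 and 3.23 FPKM to 27.0, 10.9 and 17.2 FPKM (2.37 ± 0.27).

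S1pr3, a sphingosine phosphate receptor, stood at a higher level, with 24.9, 16.1 and 18.9 FPKM against 112, 54.3 and 79.2 FPKM (1.94 ± 0.26, adjusted p = 0.000841). Receptors for vasopressin (Avpr1a, 1.80), neuropeptide Y (Npy1r, 1.93), cysteinyl leukotrienes (Cysltr2, 1.99) and serotonin (Htr7, 1.89), and the calcitonin receptor-like receptor (Calcrl, 1.92), rose with it. Npy1r was at 0.475, 0.273 and 0.715 FPKM in CD49f-low and 5.36, 4.24 and 4.36 FPKM in CD49f-high. A pair of odorant-type receptors, Olfr78 and Olfr558, rose by 2.14 ± 0.22 and 2.27 ± 0.19. Olfr558 was at 0.272, 0.388 and 0.733 FPKM against 7.94, 4.45 and 5.99 FPKM, and no CD49f-neg library exceeded 0.0262 FPKM.

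Gpr17 rose from 0.0849, 0.307 and 0.400 FPKM to 5.72, 21.7 and 23.8 FPKM (3.63 ± 0.41, adjusted p = 0.000366). It is an orphan receptor best known from oligodendrocyte precursors, and CD49f-high replicate 1 was under 0.5 times the other 2 here. Exons of Lims2 lie on the opposite strand at Gpr17, and Lims2 averaged 2.35 FPKM in CD49f-low and 8.22 FPKM in CD49f-high. On the lower side stood Mc1r, the melanocortin receptor that governs pigment type, from 5.94, 9.46 and 10.4 FPKM to 0.821, 0.352 and 0.350 FPKM (-2.65 ± 0.25, adjusted p = 0.00012). Pth1r, the receptor of parathyroid hormone and its related protein, fell from 54.0, 45.2 and 47.6 FPKM to 11.2, 11.0 and 6.57 FPKM (-2.27 ± 0.20), and was highest in CD49f-neg at 65.5 to 88.8 FPKM. Ednrb, the endothelin receptor of the pigment lineage, missed the threshold (-1.0 ± 0.33, adjusted p = 0.0683), but passed with the replicate number as a block (adjusted p = 0.00489) and when CD49f-high replicate 2 was left out (0.0427).

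Receptor tyrosine kinases split evenly, 10 of 38 higher and 10 lower. Pdgfrb, the receptor through which vessels recruit pericytes, rose from 14.8, 16.5 and 22.1 FPKM to 132, 76.8 and 121 FPKM (2.54 ± 0.22, adjusted p = 7.89e-05), and its CD49f-neg level of 17.3 to 21.5 FPKM lay within the range of CD49f-low. Kit, the stem cell factor receptor of melanoblasts and mast cells, fell from 19.5, 21.2 and 28.6 FPKM to 2.00, 1.84 and 1.62 FPKM (-3.08 ± 0.15, adjusted p = 9.08e-06). Fgfr1 fell from 95.6, 83.3 and 94.3 FPKM to 21.6, 24.6 and 15.9 FPKM (-2.10 ± 0.15) and Fgfr4 from 18.2, 7.78 and 13.7 FPKM to 1.86, 0.760 and 0.998 FPKM (-2.65 ± 0.29). The Wnt co-receptor-like kinase Ptk7 (-1.83) and the ephrin receptor Ephb6 (-1.95) followed. Egfr (1.13), Epha2 (0.93), Igf2r (0.85) and Axl (0.71) were higher.

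Receptors of the Wnt, Hedgehog and Notch pathways gave 3 of 24 higher and 9 lower (3 and 6 after median-of-ratios scaling). Notch3, the Notch receptor of mural cells, rose from 9.83, 10.8 and 19.2 FPKM to 196, 108 and 171 FPKM (3.49 ± 0.29, adjusted p = 6.92e-05). Hedgehog receptors and co-receptors fell together: Ptch1 from 38.8, 39.1 and 51.0 FPKM to 10.8, 15.2 and 11.5 FPKM (-1.71 ± 0.16), Hhip (-1.24), Boc (-1.07), Cdon (-0.94) and Gas1 (-0.68). The call of Gas1 was lost in 5 of the 9 fits without a library (highest adjusted p = 0.12). Gli1, the transcription factor that reports the pathway along with Ptch1, fell from 44.2, 55.8 and 62.4 FPKM to 15.7, 31.7 and 20.9 FPKM (-1.26 ± 0.26, adjusted p = 0.00944). The frizzled receptor Fzd10 was at 7.49, 11.1 and 11.8 FPKM against 1.72, 1.97 and 1.02 FPKM (-2.11 ± 0.20), while Fzd4 was higher (0.75).

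Neurotrophic and cytokine receptors gave 13 of 45 higher and 7 lower. Gfra3, the artemin co-receptor of Schwann precursors and sensory neurons, rose from 0.106, 0.0582 and 0.309 FPKM to 6.91, 27.5 and 34.7 FPKM (4.12 ± 0.46, adjusted p = 0.000317), with CD49f-high replicate 1 lowest. Its ligand Artn rose as well, from 0.926, 0.534 and 0.698 FPKM to 1.83, 5.05 and 6.11 FPKM (1.53 ± 0.29), again lowest in replicate 1. Ngfr, the low-affinity neurotrophin receptor, was called (1.91 ± 0.52, adjusted p = 0.0338; replicate 1 lowest of the CD49f-high libraries) but not in 5 of the 9 fits that leave out a library.

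Il13ra1, a chain of the receptors for interleukins 4 and 13, rose from 3.28, 2.91 and 3.40 FPKM to 42.1, 19.9 and 29.6 FPKM (2.85 ± 0.23, adjusted p = 6.92e-05). Of the interleukin 6 receptor family, Osmr (1.56 ± 0.27), the shared signal chain Il6st (0.89 ± 0.13) and Lifr (0.64 ± 0.11) were higher. Il6st was at 15.9, 17.0 and 16.7 FPKM against 35.8, 28.2 and 31.1 FPKM. The family's ciliary neurotrophic factor receptor Cntfr (-0.71) and the related leptin receptor Lepr (-0.69) were lower. Tnfrsf21 rose from 7.43, 5.23 and 6.94 FPKM to 39.2, 25.6 and 43.2 FPKM (2.28 ± 0.21), and Cxcr4, the chemokine receptor for Cxcl12, fell from 34.9, 37.7 and 44.9 FPKM to 7.58, 8.72 and 4.97 FPKM (-2.33 ± 0.30), as did Tnfrsf19 (-1.96).

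Adhesion and guidance receptors moved both ways. The laminin receptor chain Itga7, a partner of the beta 1 chain in muscle and mural cells, rose from 3.56, 2.83 and 4.83 FPKM to 49.5, 29.3 and 40.5 FPKM (3.10 ± 0.21, adjusted p = 2.97e-05), and the laminin receptor Bcam from 4.23, 3.55 and 5.54 FPKM to 34.2, 19.2 and 21.9 FPKM (2.24 ± 0.21). Integrin and other matrix receptors in all gave 8 of 33 higher and 4 lower (10 and 2 after median-of-ratios scaling), Itga9 being among the lower (-0.89 ± 0.15). Adgrf5, an adhesion receptor of endothelium and lung, rose by 2.49 ± 0.26, and Adgrg1 fell by 1.67. Guidance receptors split 6 higher and 6 lower of 17. Plxnb3 rose from 0.0510, 0.0714 and 0.0780 FPKM to 1.28, 8.86 and 8.93 FPKM (2.51 ± 0.47, adjusted p = 0.00582, lowest in replicate 1), while Plxnc1 fell from 5.38, 5.37 and 5.46 FPKM to 0.485, 0.724 and 0.788 FPKM (-1.95 ± 0.11). Robo1 (-1.67) and the adhesion molecule Dscam (-2.03) were lower too.

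Receptors of the transforming growth factor beta superfamily gave 2 of 14 higher and 4 lower, and this balance turned with the scaling (4 and 2 when scaled by median of ratios, 3 and 2 when quantile normalized). Bmpr1b was higher, from 0.279, 0.338 and 0.330 FPKM to 2.51, 1.03 and 1.87 FPKM (1.06 ± 0.18), and the co-receptor Rgma lower (-0.99 ± 0.16).

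**Figure D4:**
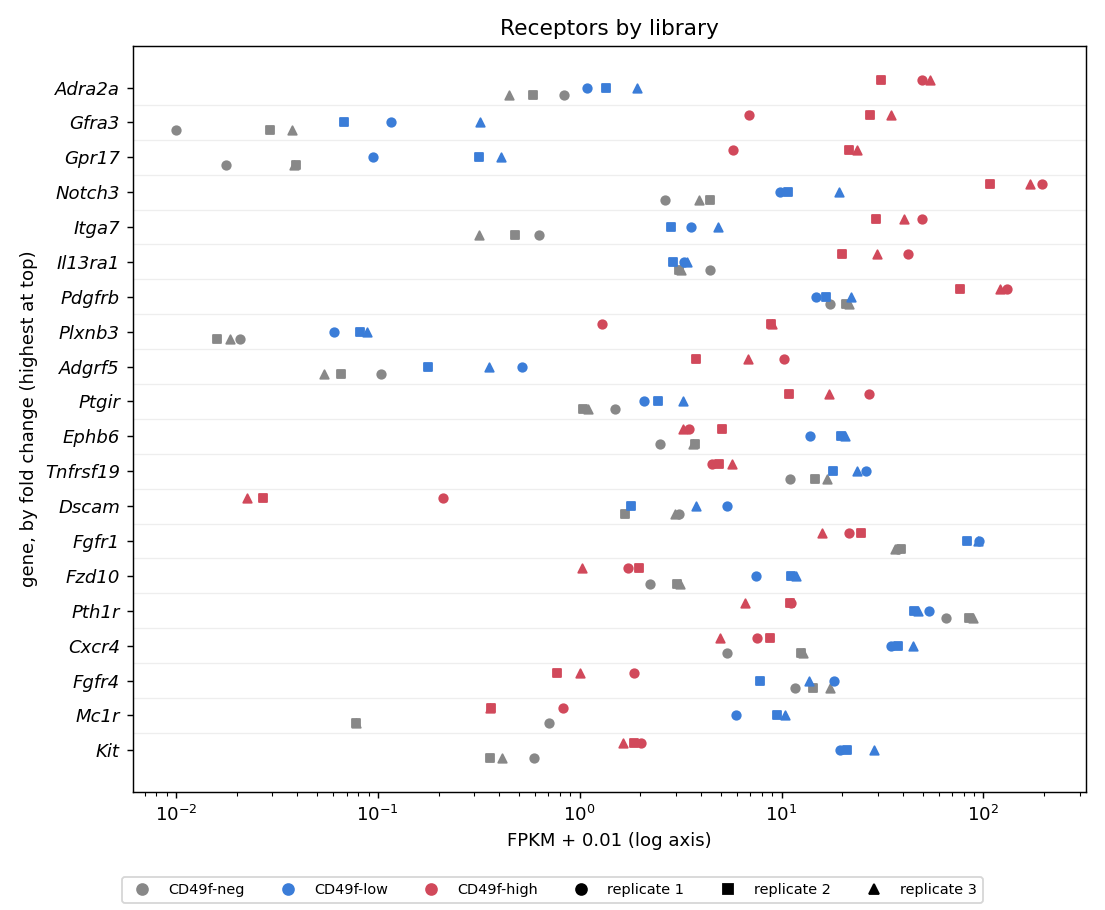
FPKM + 0.01 in each library on a log axis for the 10 receptors with the widest rise and the 10 with the widest fall, with colours for gates and marker shapes for replicates. Gfra3, Gpr17 and Plxnb3 spread widely among the CD49f-high libraries (Gfra3 from 6.91 to 34.7 FPKM), while Adra2a, Itga7 and Kit are tight within each gate.

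Secreted factors were called in 143 of 271 cases (209 more were below the filter, 20 shared a row and 12 were not in the table): 59 (21.8%) were higher and 84 (31.0%) lower, with a median difference of -0.11. Of single-symbol rows 7.40% were higher and 9.50% lower. All calls of secreted factors were free of overlap between the gates, which follows largely from their being called. Called or not, 73 of the 271 had no overlap in the higher direction and 100 in the lower, against 12.2% and 27.0% of single-symbol rows. Of the calls, 40 of the 59 higher and 65 of the 84 lower held whichever library was left out. The matricellular list, with the most members tested, held 21 of the lower calls and 12 of the higher ones. The Wnt and BMP lists, whose pathways shape dermal condensates, held 19 and 18 of the lower calls, and the growth factor and cytokine lists 10 each of the higher ones.

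Wnt ligands, their R-spondin amplifiers and their modulators gave 4 of 31 higher and 19 lower, with a median difference of -1.12 against -0.12 over single-symbol rows. That list also holds the hedgehog ligand Dhh and the Scube proteins, which help release hedgehog ligands, and without these it gave 3 of 27 higher and 17 lower. Rspo1 fell from 11.5, 18.2 and 22.1 FPKM to 1.77, 2.57 and 0.921 FPKM (-2.73 ± 0.28, adjusted p = 0.000217) and Rspo3 from 7.74, 4.68 and 6.13 FPKM to 0.741, 0.432 and 0.104 FPKM (-2.34 ± 0.28). Several secreted inhibitors fell: Wif1 from 48.3, 57.2 and 58.9 FPKM to 7.68, 12.2 and 8.85 FPKM (-2.42 ± 0.18), Dkk1 from 14.3, 11.1 and 18 FPKM to 2.43, 2.62 and 1.96 FPKM (-2.19 ± 0.18), Draxin (-2.26), Frzb (-2.17) and Notum (-1.89). Of the ligands, Wnt11 (-1.43), Wnt16 (-1.46) and Wnt5a (-0.73) were lower.

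The 4 members of that list called higher were Dhh, Sfrp1, Sfrp5 and Wnt2b, and each lost its call in at least 1 fit without a library. Dhh, the hedgehog ligand of Schwann cells, was at 0.446, 0.245 and 0.214 FPKM in CD49f-low and 1.04, 6.30 and 6.65 FPKM in CD49f-high (1.90 ± 0.43, adjusted p = 0.0147, and 0.0537 without CD49f-high replicate 3). Sfrp1 was at 2.78, 4.09 and 4.37 FPKM against 5.95, 15.1 and 15.6 FPKM (1.39 ± 0.31, adjusted p = 0.0134, and 0.0529 without CD49f-low replicate 1). Replicate 1 was the lowest CD49f-high library for Dhh, Sfrp1 and Sfrp5, and Sfrp1 and Sfrp5 are secreted inhibitors like those that fell.

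Ligands and antagonists of the BMP, transforming growth factor beta and activin group gave 6 of 36 higher and 18 lower, with a median of -0.44. Bmp4 fell from 15.2, 14.8 and 13.9 FPKM to 1.89, 1.89 and 0.752 FPKM (-2.67 ± 0.21, adjusted p = 5.7e-05) and Bmp7 from 11.9, 14.9 and 17.7 FPKM to 2.27, 2.76 and 0.983 FPKM (-2.43 ± 0.23). Inhba, the activin A chain, fell from 21.6, 28.5 and 31.5 FPKM to 5.45, 6.42 and 2.30 FPKM (-2.37 ± 0.27). The BMP antagonists Grem1 (-1.57 ± 0.26) and Nog (-1.32 ± 0.16) were lower, while the antagonists Chrdl1 (0.93) and Tsku (0.72) were higher, each a call lost in 7 of the 9 fits that leave out a library. Bmp5 was higher at a low level, 0.202 to 0.437 FPKM against 1.33 to 2.59 FPKM (1.16 ± 0.17).

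Growth factors of the FGF, PDGF, VEGF, angiopoietin, EGF, HGF and KIT ligand families ran the other way, 10 of 29 higher and 2 lower. The angiopoietins Angpt2 and Angpt1 were higher: Angpt2 from 1.77, 1.43 and 2.21 FPKM to 14.2, 11.3 and 13.9 FPKM (2.34 ± 0.16, adjusted p = 2.94e-05) and Angpt1, the vessel-stabilising ligand, from 0.858, 1.44 and 1.31 FPKM to 7.54, 5.45 and 5.97 FPKM (1.73 ± 0.16). Pdgfa rose from 1.38, 1.68 and 1.64 FPKM to 10.4, 7.59 and 9.44 FPKM (1.97 ± 0.13), and Pdgfb, the ligand of Pdgfrb, by 1.81 ± 0.11. Kitl, the ligand of Kit, rose from 10.4, 8.86 and 7.69 FPKM to 32.8, 24.5 and 32.1 FPKM (1.62 ± 0.18), so that ligand and receptor differed in opposite directions. Fgf1 was higher (2.16 ± 0.15) and Fgf10 lower, from 6.29, 7.27 and 7.72 FPKM to 3.43, 3.36 and 2.80 FPKM (-0.95 ± 0.14), while Fgf7 (0.08 ± 0.21, adjusted p = 0.825) and Vegfa (0.15 ± 0.15, adjusted p = 0.54) were not called.

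Chemokines and cytokines gave 10 of 30 higher and 1 lower, Lgals1 (-0.77), with none lower after median-of-ratios scaling and 3 with the replicate number as a block. Lgals1 lost its call in 5 of the 9 fits without a library. Rarres2, among the 10 higher, also lost its call in 5 of the 9 (highest adjusted p = 0.117). Il34, an alternative ligand of the macrophage growth factor receptor, rose from 0.399, 0.315 and 1.03 FPKM to 16.2, 9.90 and 13 FPKM (3.15 ± 0.21, adjusted p = 2.97e-05). Il6 rose from 5.13, 4.57 and 4.61 FPKM to 49.6, 24.6 and 39.5 FPKM (2.70 ± 0.29), and the eosinophil chemokine Ccl11 from 3.37, 2.73 and 6.88 FPKM to 39.7, 26.6 and 41.0 FPKM (2.84 ± 0.30). The response genes Socs3 (1.84 ± 0.19) and Zfp36 (1.52 ± 0.28) of the immediate early and dissociation list were higher in the same libraries. They were the only 2 of its 16 members called (12.5% higher, against 7.40% of single-symbol rows). Without CD49f-neg replicate 1 it was 4, and with the replicate number as a block 5, with 1 lower. The summed level of the list ran from 2107 to 2644 FPKM in CD49f-low and 2944 to 3137 FPKM in CD49f-high. The part of that list in the cytokine values was not tested.

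Neurotrophic and related ligands gave 6 of 19 higher and 4 lower. Olfml2a, an olfactomedin-like matrix protein, rose from 3.76, 6.17 and 7.84 FPKM to 46.3, 77.8 and 83.6 FPKM (3.34 ± 0.27, adjusted p = 6.99e-05). Reln, a large secreted guide of migrating neurons that is also made by lymphatic endothelium, rose from 0.341, 0.211 and 0.564 FPKM to 7.62, 8.72 and 10.9 FPKM (2.87 ± 0.15). Lgi4, a Schwann cell signal for myelination, rose by 2.33 ± 0.39 and was lowest in CD49f-high replicate 1 (2.22 against 9.65 and 9.48 FPKM). Ntf3 was lower, from 3.06, 2.66 and 3.99 FPKM to 0.837, 0.836 and 0.679 FPKM (-1.24 ± 0.14).

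Guidance and Notch ligands gave 7 of 35 higher and 11 lower. Sema5b rose from 0.747, 1.59 and 2.23 FPKM to 15.2, 14.9 and 17.6 FPKM (2.79 ± 0.20, adjusted p = 4.17e-05). The Notch ligands parted: Dll1 fell from 10.5, 12.9 and 13.8 FPKM to 1.85, 1.90 and 0.817 FPKM (-2.43 ± 0.19), and Jag1 rose from 8.52, 13.6 and 13.1 FPKM to 20.9, 21.3 and 21.1 FPKM (0.82 ± 0.17, adjusted p = 0.0104).

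Of the peptide hormones and vasoactive peptides, 2 of 16 were higher and 7 lower (4 higher when quantile normalized, and 5 with the replicate number as a block). Npy fell from 9.23, 13.6 and 17.9 FPKM to 0.988, 0.889 and 1.35 FPKM (-2.78 ± 0.22, adjusted p = 5.63e-05) while its receptor Npy1r rose. Edn3, the endothelin that acts on melanoblasts, fell from 7.97, 6.74 and 7.73 FPKM to 1.26, 0.944 and 0.221 FPKM (-2.27 ± 0.24), and the enkephalin precursor Penk by 1.64. Cck, the cholecystokinin precursor, rose from 0.234, 0.324 and 0.928 FPKM to 5.22, 4.17 and 4.66 FPKM (1.95 ± 0.18).

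Insulin-like growth factors themselves were not called (Igf1 -0.40, adjusted p = 0.172; Igf2 -0.19, adjusted p = 0.709), but 3 of their binding proteins were (of 10 genes in this list 1 was lower, and 3 with the replicate number as a block). Igfbp5 rose from 13, 21.7 and 24.1 FPKM to 154, 129 and 134 FPKM (2.80 ± 0.20, adjusted p = 3.76e-05) and Igfbp7 from 45, 99.9 and 83.7 FPKM to 246, 244 and 245 FPKM (1.75 ± 0.30). Igfbp3 fell from 132, 124 and 135 FPKM to 41.9, 50.8 and 41.4 FPKM (-1.53 ± 0.20).

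Matricellular and matrix-bound proteins gave 12 of 65 higher and 21 lower. Sparcl1 rose from 50.6, 40.2 and 55.4 FPKM to 264, 181 and 193 FPKM (2.10 ± 0.17) and Fmod, a collagen-binding proteoglycan, from 2.34, 1.80 and 2.68 FPKM to 25.7, 13.5 and 11.1 FPKM (2.36 ± 0.28). Smoc1 fell from 22, 19.4 and 23.8 FPKM to 10.6, 2.63 and 0.904 FPKM (-2.40 ± 0.54, adjusted p = 0.0148), with a wide spread in CD49f-high and a call lost without CD49f-low replicate 3 (adjusted p = 0.053).

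**Figure D5:**
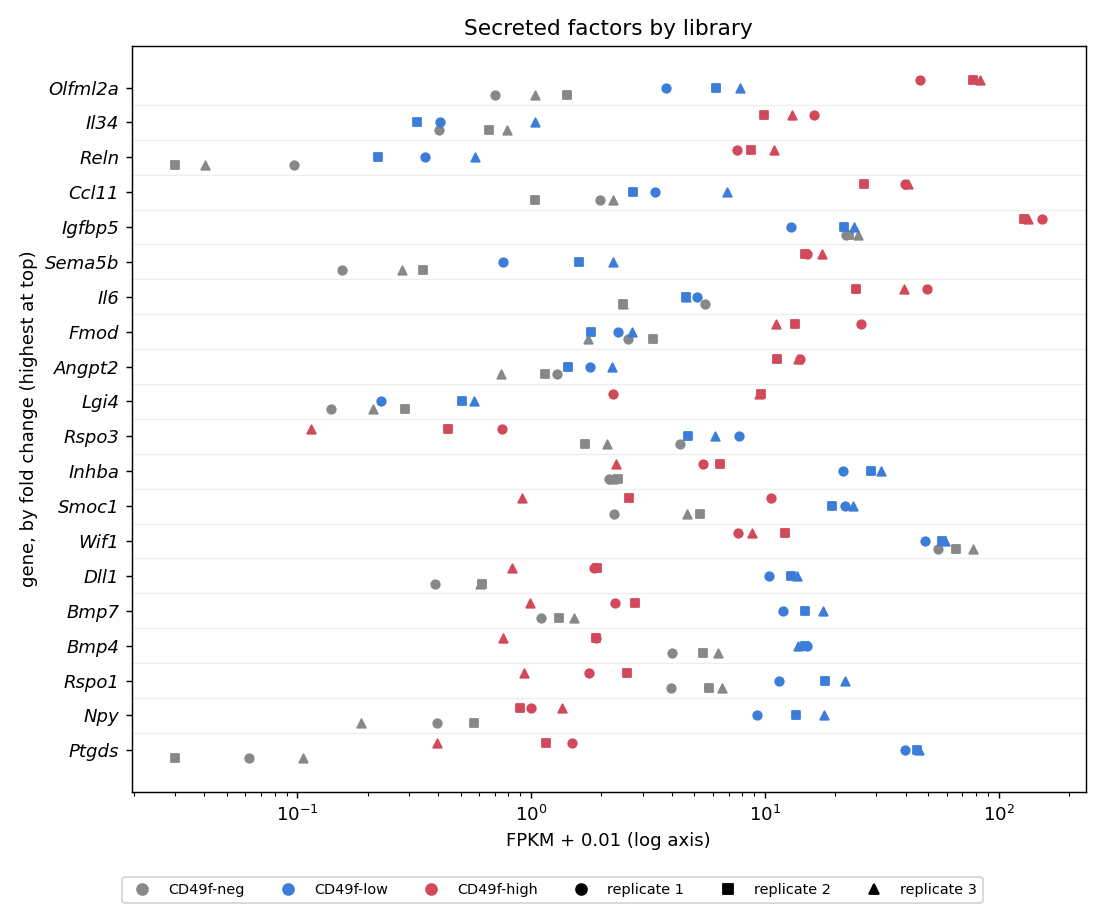
FPKM + 0.01 in each library on a log axis for the 10 secreted factors with the widest rise and the 10 with the widest fall, with colours for gates and marker shapes for replicates. Il34 and Reln lie clear of the CD49f-low points in all 3 CD49f-high libraries, and Smoc1 has the widest spread among the CD49f-high libraries of the genes that fell (0.904 to 10.6 FPKM).

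Markers of other cell types that the gates could hold moved with some of these values, and their part in them was not tested. Lymphatic endothelium gave 5 of 6 tested genes higher and none lower, with Lyve1 at 0.773, 0.296 and 0.888 FPKM against 8.10, 3.19 and 10.9 FPKM (2.24 ± 0.33), and Reln and Flt4 are among the 5. Pdpn went the other way (-0.69). It was not called, but passed with the replicate number as a block (adjusted p = 0.0194) and without CD49f-high replicate 2 (0.0448). Prox1 was below the filter and overlapped, at 1.06, 0.830 and 0.740 FPKM in CD49f-low and 0.943, 0.699 and 1.73 FPKM in CD49f-high. Blood endothelium gave 2 of 9 higher (4 after median-of-ratios scaling or with the replicate number as a block), Esam (3.04 ± 0.22) and Cdh5 (2.04 ± 0.22), and 1 lower, Kdr (-0.91 ± 0.17). Pecam1 of the same list was below the filter, at 0.657, 0.223 and 0.172 FPKM in CD49f-low and 1.16, 0.574 and 1.13 FPKM in CD49f-high. Keratinocyte genes gave 6 of 10 higher, such as Epcam (1.05 ± 0.15), and 1 lower, Cdh1 (-2.16 ± 0.22). Without CD49f-low replicate 3 only 3 were higher. The list had sums of 37.3 to 42.2 FPKM in CD49f-low and 28.4 to 68.4 FPKM in CD49f-high. In the immune list the only member above the filter, Cd68, was not called (-0.34 ± 0.19, adjusted p = 0.258, and 0.0339 with the replicate number as a block), and Ptprc, the general leukocyte gene, was at most 0.0107 FPKM in CD49f-high.

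Fibroblast matrix genes were high in both gates, with Col1a1 at 2331 to 2728 FPKM in CD49f-low and 1675 to 2738 FPKM in CD49f-high. Its level was highest in CD49f-neg, at 5690 to 7463 FPKM. Of that list 7 of 17 were lower and none higher, including Eln (-1.58 ± 0.21), Lum (-1.01 ± 0.15) and Col6a3 (-0.68 ± 0.12). Proliferation genes gave no call higher and 2 of 18 lower (11.1%, against 9.50% of single-symbol rows), Rrm2 (-0.65 ± 0.17) and Birc5 (-0.52 ± 0.14), and no member was called after median-of-ratios scaling. When any 1 of the CD49f-low or CD49f-high libraries was left out, 0 or 1 of them were lower. With the replicate number as a block, 8 of the 18 were lower.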

How the data were processed

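The authors deposited 1 table of FPKM values for 9 libraries of total RNA, made with the NEBNext Ultra RNA kit, per the labels' protocols, and FastQC, TopHat2, StringTie and GRCm38 are named in the submitters' processing notes, without versions. The strandedness of the counting and the annotation are not given in the sources used here. Whole read counts could not be recovered: only 25.3% to 30.1% of low single-exon values per library fell within 0.05 of a whole fragment at the best fit. The best fits lay at about 23700000 to 27100000 fragments, but with so few values matched the depth is not established. Rows with at least 1 FPKM in at least 3 of the 9 libraries were tested as log2(FPKM + 1) in limma 3.58.1 under R 4.3.3 (a mean for each of 3 gates, mean-variance trend, 6 residual degrees of freedom, contrast CD49f-high minus CD49f-low), adjusted by Benjamini-Hochberg over 20523 rows and called at an adjusted p under 0.05. The fit was tested on simulated data in which libraries varied independently. That test does not cover libraries that deviate together, as the same-numbered ones described below do. Of these rows, 7671 carry no gene symbol and 846 several, and list counts use the 12006 rows with 1 symbol.

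Members and lists were chosen with earlier results of these data known. The genes named are the 8 highest and 8 lowest called rows with at least 10 FPKM in the higher gate, the 10 highest and 10 lowest called members of each class with at least 3 FPKM, the called member with the smallest adjusted p in each direction of each family, and up to 3 members of each marker list. Some genes so chosen are not reported here or drawn in the figures of levels by library. All further genes named were chosen after their values were seen, as were the CATGTG search and its extension from 3 genes to all called members of the 2 lists. Windows shown leave out bases in GENCODE M21 exons.

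The labels give no source for the replicate numbers. Same-numbered libraries deviated together (r = 0.25 to 0.52 across rows in all 9 pairs, against -0.45 to 0.12 for different numbers), so the fit with the number as a block is given beside results where it changes a call or moves a count by over 1.5 times. Of 133 genes named by rule, 37 overlap an exon on the opposite strand, 9 of them an exon of a protein-coding gene, among them Pmel, Phox2a, Gpr17, Lgi4, Itga7, Pth1r, Bmp4 and Zic1, and their reads cannot be assigned without strand. The same holds for further genes in the text that overlap protein-coding genes, such as Cebpd, Igfbp7 and Gli1. Alternatives were another pseudocount, filter, scaling, variance trend, threshold, the block, a fit on 6 libraries and each library left out. No sample was left out of the main fit.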

Additional observations from a re-analysis of the deposited data

How the results depend on the processing

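With at least 5 FPKM in 3 libraries required, 519 rows were called higher and 804 lower, with 24 and 45 transcription factors, 37 receptors higher and 35 secreted factors higher, since fewer rows were tested. Requiring also a fold of at least 2 left 600 rows higher and 666 lower, 41 transcription factors lower, 24 receptors lower and 38 secreted factors higher. Rows called lower numbered 1331 when scaled by median of ratios, 1431 when quantile normalized and 3652 with the replicate number as a block. With the block, 3362 of the 3367 calls were also made in the same direction, and of the genes named it changed the calls of Itgb1, Ednrb, Tbx6, Pdpn and Cd68 only. Leaving out 1 library gave 894 to 1311 rows higher and 1307 to 2274 lower, 29 to 44 transcription factors higher and 59 to 77 lower, 54 to 77 receptors higher and 44 to 56 lower, 43 to 63 secreted factors higher and 69 to 85 lower, and 1.53 to 1.82 for Itga6. Of the 132 other genes named by rule, 112 kept direction and side of the threshold in every setting in which they were tested. Among results without a call, Alas2 ranged from -0.707 to 0.0838 and Lpl from -0.592 to 0.0906 as 1 library was left out, turning sign without CD49f-low replicate 1 (Alas2, 0.0838) and CD49f-high replicate 3 (Alas2, 0.01, and Lpl, 0.0906). The cause of these changes was not tested. Depth limits genes near 1 FPKM most, and no interval for counting error can be given without counts.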
